A study of Mus musculus with 12 samples.

Results

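The heat shock proteins, their J-protein partners and the chaperonins were examined in ribosome-bound RNA of midbrain dopaminergic neurons of the mouse. Members were the rows of the deposited table whose symbol begins with Hspa, Hspb, Hspd, Hspe, Hsph, Hsp90, Dnaja, Dnajb, Dnajc or Cct before a digit, and 1 gene with such a symbol was left out by the rule. This gave 80 of the 23079 genes listed. The rule itself uses symbols and no measured value, but the group was picked with earlier results of these data known. The series compares neurons of the substantia nigra pars compacta (SNpc), which are lost early in Parkinson disease, with those of the adjoining ventral tegmental area (VTA). Both groups came from C57BL/6 mice, and the labels call them TRAP samples (translating ribosome affinity purification), which pulls down tagged ribosomes of a chosen cell type together with the RNA they carry. The promoter that drove the tag, the age and sex of the mice, any pooling of animals and any treatment are missing from the sources used here. Of 12 deposited columns, SNpc columns 4 and 5 held identical counts, as did VTA columns 2 and 3. Each such pair differed by less than the sampling noise and was counted as 1 library (SNpc library 4, VTA library 2), so that 5 SNpc and 5 VTA libraries were compared. The labels do not tie libraries to animals, and p-values therefore measure a spread that may be technical.

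Chaperones bind proteins that are not yet folded, have lost their fold or are being moved, and keep them from aggregating. Hsp70 proteins bind short exposed stretches of a client in a cycle driven by ATP, J proteins (the DNAJA, DNAJB and DNAJC families) bring the clients and start the hydrolysis, and Hsp110 proteins help release the nucleotide. Hsp90 takes over clients such as kinases and steroid receptors at a later step, small heat shock proteins hold clients without ATP, and chaperonins enclose them in a barrel. In neurons the cytosolic Hsp70 system also strips clathrin from vesicles and attends to the release machinery at the synapse, and chaperones are studied in Parkinson disease because alpha-synuclein aggregates there.

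Total counts ran from 62951005 to 65959443 per SNpc library and from 62356964 to 81393907 per VTA library. Levels are given as CPM, read counts scaled by library size with TMM factors. Every marker listed for each cell type had counts, and the 10 dopaminergic markers had a summed level of 12984 to 18965 CPM in SNpc and 7209 to 10518 CPM in VTA. Markers of other cells were far lower but present. The 10 astrocyte markers summed to 379 to 739 CPM in SNpc and 644 to 827 in VTA, the 10 oligodendrocyte markers to 279 to 1402 and 698 to 877, the 10 microglial markers to 15.7 to 42.2 and 38.7 to 55.0, and the 10 endothelial markers to 2.51 to 16.1 and 4.24 to 112. SNpc library 4 held the highest oligodendrocyte sum of the series and VTA library 1 the highest endothelial sum. Markers of GABAergic neurons summed to 84.8 to 314 CPM in SNpc and 165 to 279 in VTA, those of glutamatergic neurons to 18.6 to 87.4 and 91.3 to 130.2, and those of ependymal cells to 19.6 to 23.4 and 20.1 to 29.9. The part of these cells in the results below was tested only through a fit with the astrocyte, oligodendrocyte and microglial markers as a covariate. In such material fewer cells of a type and less RNA per cell cannot be told apart.

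Chaperone RNAs were more often higher in SNpc than in VTA. Of the 80 members, 69 had enough counts to be tested. Of these, 33 were higher in SNpc, 3 were higher in VTA and 33 did not pass a Benjamini-Hochberg adjusted p of 0.05 in edgeR's quasi-likelihood test, adjusted over all 15685 genes tested. Among all genes tested 17.8% were higher in SNpc, 20.4% were higher in VTA and 38.2% passed in either direction, against 36 of the members. The median log2 fold change, SNpc minus VTA, was 0.34 over the members tested and -0.04 over all genes tested. The changes higher in SNpc were small, between 1.19-fold and 1.80-fold. The libraries of the regions did not overlap for 26 members with SNpc above VTA and 2 with SNpc below VTA, against 12% and 14.6% of all genes tested. Of the members that did not pass, 23 had a positive and 10 a negative log2 fold change. Added up, the members held 13418, 11611, 11910.0, 11541 and 12709.9 CPM in SNpc libraries 1, 2, 3, 4 and 6, against 9262, 9061, 9290.0, 9557 and 9309.5 CPM in VTA libraries 1, 2, 4, 5 and 6. Every SNpc sum lay above every VTA sum. Hspa8, Hsp90ab1 and Hsp90aa1 weighed most in these sums, at means of 3531, 1495 and 1074 CPM in SNpc and 2406, 1120 and 796 in VTA. Hspa8 and Hsp90aa1 share sequence with other transcripts, as given below. With glial markers as a covariate 21 members were higher in SNpc and 2 in VTA, against 11.8% and 15.7% of all genes.

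**Figure D1:**
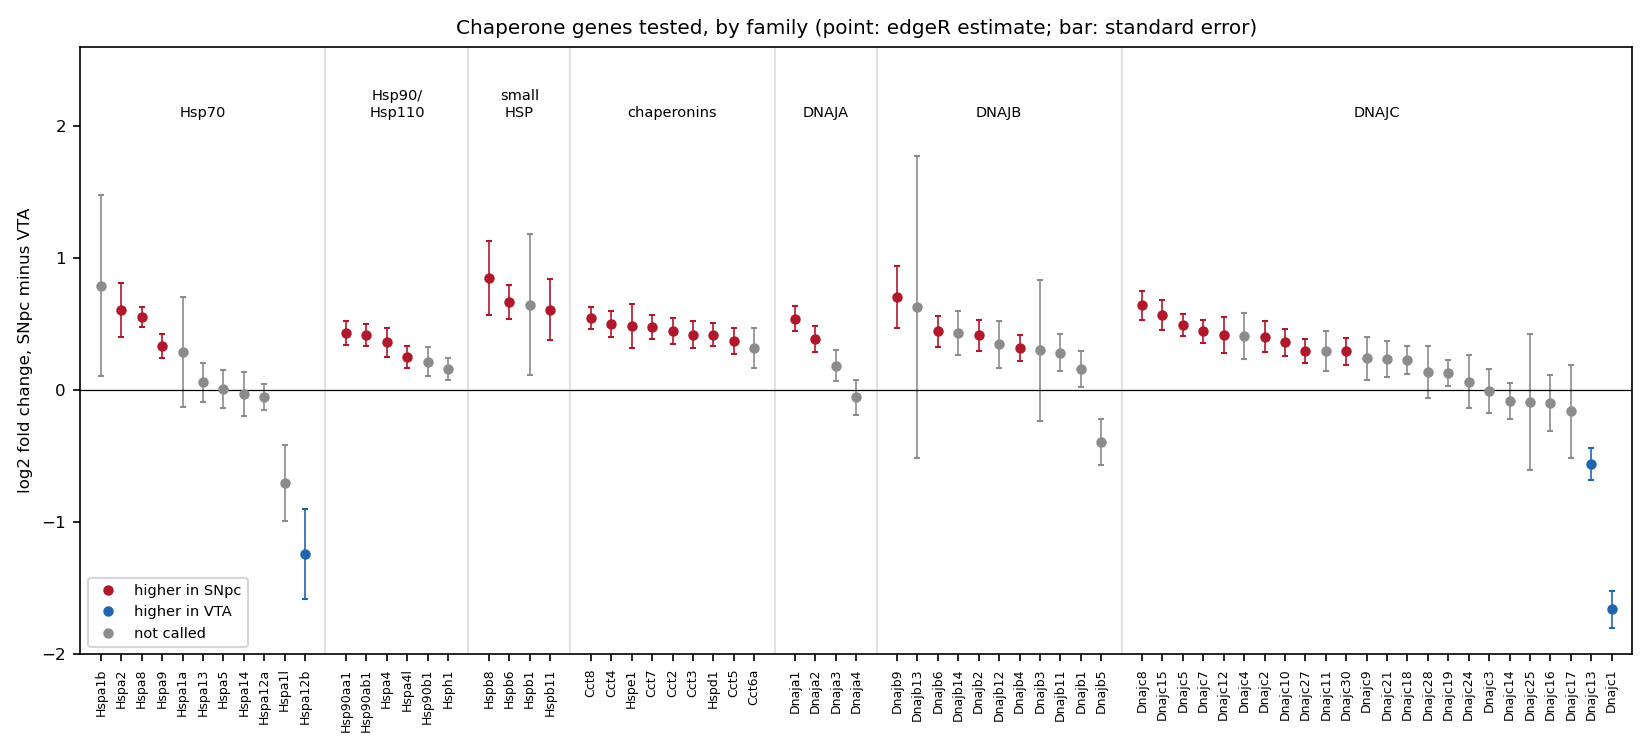
Log2 fold change (SNpc minus VTA, vertical axis) of the 69 members tested, by family, with the edgeR estimate as a point and its standard error as a bar. Most points lie above 0, all 9 chaperonins among them, while Dnajc1, Hspa12b, Hspa1l (not called) and Dnajc13 lie well below.

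Per kilobase of transcript, Hspa8 was the most abundant member in both regions, at 1475 CPM per kilobase in SNpc and 1005 in VTA. It was followed by Hsp90ab1 at 593 and 444, Hsp90aa1 at 327 and 243, and Hspe1 at 276 and 197 CPM per kilobase. The inducible Hsp70 genes were far lower, with Hspa1a at 0.802 and 0.657 and Hspa1b at 0.444 and 0.256 CPM per kilobase. Lengths are those of the longest basic GENCODE transcript.

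The promoters of 4 members are shown because they carry the elements through which chaperone genes are classically switched on, and because their genes differ in how they compared between the regions. RefSeq promoter windows on GRCm38.p6, from 250 bases before to 50 after a start, were found for 65 of the 80 members. They were searched on both strands for the heat shock element bound by heat shock factors, spelled as the units GAA, TTC and GAA with NN between neighbours, and for the element of the endoplasmic reticulum stress response, spelled as CCAAT and CCACG with 9 bases of any kind between them. The first was found in 4 members (Dnajb6, Hspd1, Hspe1 and Hsph1), against 0.662% of all 27025 genes with a window, and the second in 3 (Dnajc3, Hsp90b1 and Hspa5), against 0.137%. Of the 4 genes with the first element Dnajb6, Hspd1 and Hspe1 were higher in SNpc and Hsph1 did not pass, and of the 3 with the second none passed the test. The search is a description of the letters in these windows and no sign of binding. Capitals mark the matches, which overlap each other in the window of Hspe1. Those of Hspd1 are the same bases as those of Hspe1. In the window printed for Hsph1 the match begins 15 bases after the start, not before it. The window of Hspe1 (chr1:55087898-55088197, plus strand) reaches into Hspe1 and lies within the annotated span of Hspd1. The spans of these genes overlap, and the genes are transcribed away from each other. Their windows share most of their bases. The other windows are chr5:149636266-149636565, minus strand, for Hsph1, chr2:34771840-34772139, plus strand, for Hspa5, and chr10:86705395-86705694, minus strand, for Hsp90b1.
Hspe1: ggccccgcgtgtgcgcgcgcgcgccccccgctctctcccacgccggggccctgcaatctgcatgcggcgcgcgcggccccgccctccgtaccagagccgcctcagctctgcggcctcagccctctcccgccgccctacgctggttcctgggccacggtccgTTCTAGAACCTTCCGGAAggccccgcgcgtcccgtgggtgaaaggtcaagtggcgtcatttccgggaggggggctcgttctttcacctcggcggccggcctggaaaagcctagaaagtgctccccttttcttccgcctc
Hsph1: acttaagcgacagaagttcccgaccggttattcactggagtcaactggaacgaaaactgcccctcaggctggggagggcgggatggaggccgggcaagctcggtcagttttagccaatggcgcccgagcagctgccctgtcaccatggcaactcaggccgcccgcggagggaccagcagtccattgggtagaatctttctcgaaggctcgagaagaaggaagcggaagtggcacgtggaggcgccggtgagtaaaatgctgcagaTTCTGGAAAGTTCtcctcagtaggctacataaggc
Hspa5: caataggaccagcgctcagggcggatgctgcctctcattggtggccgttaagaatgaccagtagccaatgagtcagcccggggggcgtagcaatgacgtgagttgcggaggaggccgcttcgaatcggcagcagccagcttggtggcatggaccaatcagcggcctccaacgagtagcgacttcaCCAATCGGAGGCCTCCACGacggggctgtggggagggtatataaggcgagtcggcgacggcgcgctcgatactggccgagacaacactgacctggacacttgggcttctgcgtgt
Hsp90b1: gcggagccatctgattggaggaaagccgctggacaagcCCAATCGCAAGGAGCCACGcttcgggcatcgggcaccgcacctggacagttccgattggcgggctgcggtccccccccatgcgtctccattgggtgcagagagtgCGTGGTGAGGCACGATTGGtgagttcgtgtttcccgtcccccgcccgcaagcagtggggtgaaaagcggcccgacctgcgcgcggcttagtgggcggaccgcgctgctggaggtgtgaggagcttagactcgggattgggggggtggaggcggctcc

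In the Hsp70 family, 3 of 11 members were higher in SNpc and 1 in VTA, against 17.8% and 20.4% of all genes. The median log2 fold change was 0.06. With glial markers as a covariate these counts were 1 and 0, against 11.8% and 15.7%. Hspa8, the constitutive cytosolic Hsp70 that also uncoats clathrin vesicles (Entrez 15481, mm10 chromosome 9, 40801276 to 40805202), was 3979, 3315, 3393, 3314 and 3655 CPM in the SNpc libraries, against 2363, 2327, 2344, 2485 and 2510.0 CPM in the VTA libraries. The lowest SNpc library stood well above the highest VTA library. Its mean was 3531 ± 287 CPM in SNpc and 2406 ± 85.1 CPM in VTA (SD, n = 5 each), a log2 fold change of 0.55 ± 0.08 (SE; adjusted p = 3.31e-05 in edgeR). Exact copies of 62.8% of its 100-base windows occur in transcripts of other genes annotated mainly as processed pseudogenes, so its count is uncertain. Hspa9, the Hsp70 of the mitochondrial matrix that pulls imported proteins inside, was 136, 119.7, 131, 122 and 145 CPM in the SNpc libraries, against 109, 104, 109.8, 97.6 and 97.5 CPM in the VTA libraries. These groups did not overlap either, and its log2 fold change was 0.34 ± 0.09 (SE; adjusted p = 0.00758 in edgeR), but it was not called with glial markers as a covariate, where the log2 fold change was 0.29 with an adjusted p of 0.0578 in edgeR. Hspa2, a cytosolic form best known from the testis, had a log2 fold change of 0.61 at 25.5 CPM in SNpc and 16.8 CPM in VTA, and its groups overlapped. Its call ended when SNpc library 1 or 6 or VTA library 2, 4 or 6 was left out. Over all fits without a single library the log2 fold change ran over 0.47 to 0.76 with adjusted p from 0.00752 to 0.0857 (edgeR). The call also ended with the length and GC trend of the longest transcript removed (0.53) and with the glial covariate (0.40), but not with the trend of the median transcript (0.60).

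The only Hsp70 gene higher in VTA was Hspa12b, a distant relative of the family that is known from endothelial cells. It was 5.04, 3.42, 2.29, 2.74 and 1.47 CPM in the SNpc libraries, against 9.61, 7.73, 7.35, 4.37 and 6.34 CPM in the VTA libraries, with a log2 fold change of -1.24 ± 0.34 (SE; adjusted p = 0.00823 in edgeR). SNpc library 1 and VTA library 5 overlapped. VTA library 1 held the highest level and also the highest endothelial sum, and the part of endothelial RNA in this difference was not tested. Without single libraries the log2 fold change was -1.51 to -1.07 with adjusted p from 0.00303 to 0.0262 (edgeR). The call ended with glial markers as a covariate, at a log2 fold change of -1.26 and an adjusted p of 0.0501. Its relative Hspa12a, which neurons express, was 172 CPM in SNpc and 179 CPM in VTA with a log2 fold change of -0.05 that did not pass and became 0.26, a call higher in SNpc, after the trend with transcript length and GC content was removed, but -0.26, no call, when the length of the median transcript was used.

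Hspa5, the Hsp70 of the endoplasmic reticulum (BiP) and a common readout of its stress response, was 114, 96.3, 103, 72.8 and 141 CPM in the SNpc libraries, against 102, 101, 117, 119 and 86.2 CPM in the VTA libraries. The groups overlapped fully, with a log2 fold change of 0.01 ± 0.15 (SE; adjusted p = 0.974 in edgeR). The inducible cytosolic genes Hspa1a and Hspa1b were at 2.38 CPM in SNpc and 1.95 CPM in VTA and at 1.24 CPM in SNpc and 0.718 CPM in VTA, against 3531 and 2406 CPM for Hspa8, and neither passed (log2 fold changes of 0.29 and 0.79). They share 48.6% and 49.9% of their 100-base windows with each other or with Hspa1l, so that their split is uncertain. Hspa1l, their neighbour known from the testis, had a log2 fold change of -0.70 at 3.64 CPM in SNpc and 5.94 CPM in VTA, which did not pass (edgeR adjusted p = 0.0644), and 71.9% of its exons overlap an opposite-strand transcript. Hspa13, an Hsp70 of microsomes, and Hspa14, which works with the ribosome, had log2 fold changes of 0.06 and -0.03 and did not pass.

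**Figure D2:**
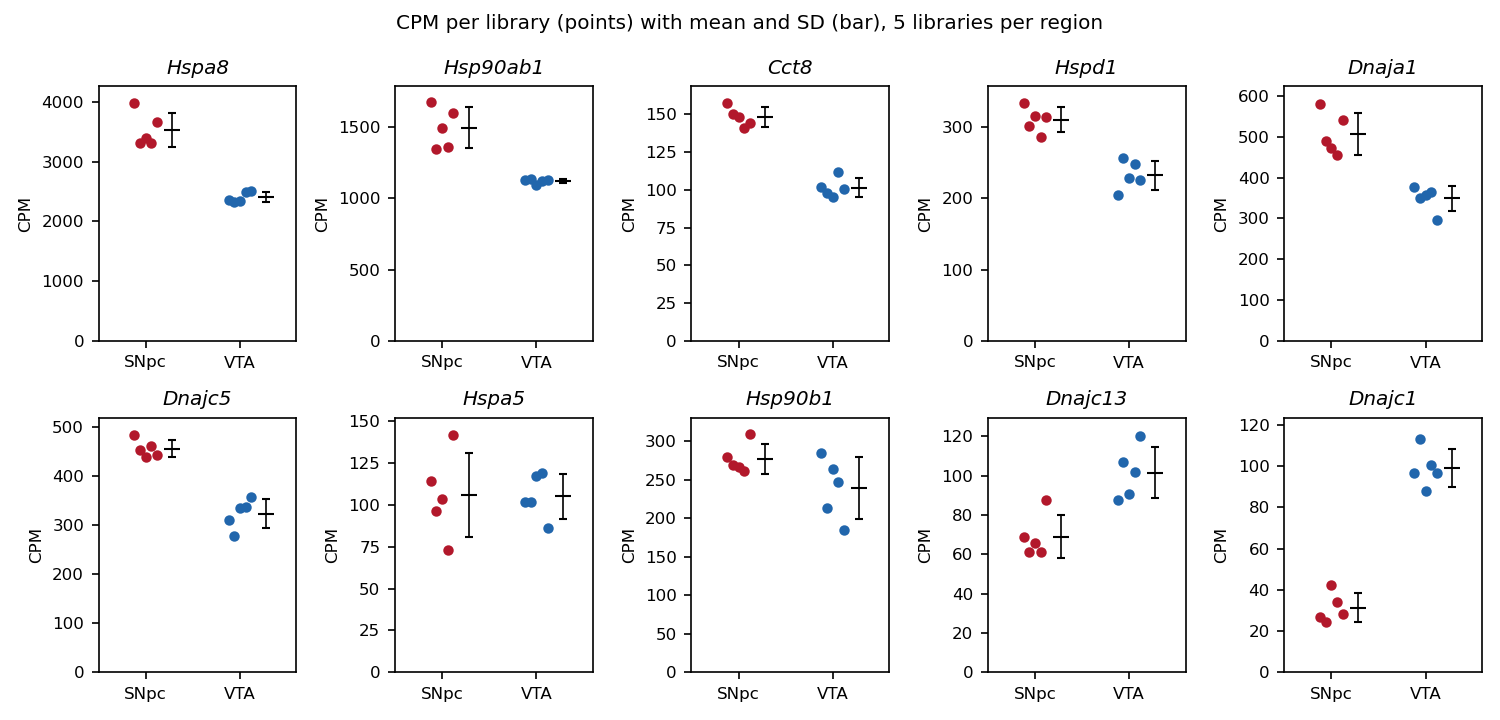
CPM of 10 members in each library (points; vertical axis from 0) of SNpc (left) and VTA (right), with the mean and SD of 5 libraries as a bar. The groups are apart for Hspa8, Hsp90ab1, Cct8, Hspd1, Dnaja1 and Dnajc5 (SNpc above VTA) and for Dnajc13 and Dnajc1 (SNpc below VTA), and overlap for the endoplasmic reticulum chaperones Hspa5 and Hsp90b1.

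Hsp90 and Hsp110 genes gave 4 of 6 higher in SNpc and 0 in VTA, against 17.8% and 20.4% of all genes. Their median log2 fold change was 0.30. Hsp90ab1, the constitutive cytosolic Hsp90 (Entrez 15516, chromosome 17, 45567778 to 45573261), was 1673, 1348, 1496, 1359 and 1599.9 CPM in the SNpc libraries, against 1127, 1136, 1094, 1118 and 1125 CPM in the VTA libraries. The VTA libraries lay close together and all SNpc libraries lay above them. Its mean was 1495 ± 144 CPM in SNpc and 1120.0 ± 15.8 CPM in VTA (SD, n = 5 each), a log2 fold change of 0.42 ± 0.08 (SE; adjusted p = 0.000658 in edgeR). Hsp90aa1, the stress-responsive cytosolic form, was 1228, 917, 1042, 1041 and 1143 CPM in the SNpc libraries, against 894, 829, 738, 761 and 759 CPM in the VTA libraries, again without overlap and with a log2 fold change of 0.43 ± 0.09 (SE; adjusted p = 0.00137 in edgeR). Pseudogene transcripts hold 47.5% of its 100-base windows. Hsp90b1, the Hsp90 of the endoplasmic reticulum (Grp94), had a log2 fold change of 0.21 at 277 CPM in SNpc and 239 CPM in VTA and did not pass.

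Of the Hsp110 genes, which act as nucleotide exchange factors for Hsp70, Hspa4 and Hspa4l were higher in SNpc, with log2 fold changes of 0.36 (237 ± 34.9 CPM in SNpc and 184 ± 16.6 CPM in VTA, SD, n = 5 each) and 0.25 (214 ± 17.6 CPM in SNpc and 179.7 ± 9.56 CPM in VTA). Hsph1 was 404 CPM in SNpc and 361 CPM in VTA with a log2 fold change of 0.16 that did not pass (edgeR adjusted p = 0.144) and that became 0.22, a call higher in SNpc, with the length and GC trend removed. Neither Hspa4 nor Hspa4l was called with the glial covariate (0.21 and 0.20). The call of Hspa4l also ended with scaling by library totals and with the length and GC trend of the median transcript removed (0.18). It ended too when SNpc library 6 or VTA library 4, 5 or 6 was left out. Over all fits without a single library its log2 fold change ran over 0.20 to 0.33 with adjusted p from 0.00617 to 0.0783 (edgeR).

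Partners of Hsp90 and Hsp70 under other names were also examined. Of 26 Hsp90 cochaperones tested, 13 passed with SNpc above VTA and 3 with SNpc below it (median 0.44). For 17 exchange factors and other Hsp70 partners these counts were 10 and 2 (median 0.43). Among all genes tested, 17.8% passed with SNpc above VTA and 20.4% with SNpc below it. The phosphatase Ppp5c (0.79), the adaptor Stip1 that hands clients from Hsp70 to Hsp90 (0.54), the immunophilin Fkbp4 (0.51) and Sugt1 (0.66) had the smallest p in the first list, and Sgtb (0.72), Ttc1 (0.63), Bag1 (0.55) and Grpel2 in the second, with log2 fold changes in brackets. Grpel2, an exchange factor of the mitochondrial Hsp70, was higher in VTA, at 18.2 ± 2.73 CPM in SNpc and 37.5 ± 5.95 CPM in VTA (SD, n = 5 each), a log2 fold change of -1.05 ± 0.15 (SE; adjusted p = 4.76e-05 in edgeR). The others higher in VTA, named after their values were seen, were Bag3 (-1.20), Ahsa2 (-0.39), Tsc1 (-0.42) and Unc45b, which stayed at or under 0.183 CPM in every SNpc library and 1.63 CPM in every VTA library. The call of Bag3 ended with the glial covariate (-0.81), that of Tsc1 with the length and GC trend removed, where its direction turned (0.03), and without SNpc library 4. That of Unc45b ended without SNpc libraries 1, 2, 3 and 6 or VTA libraries 1, 2, 5 and 6, with other filters and with the length and GC trend removed.

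Nearly all chaperonins tested were higher in SNpc, against 17.8% of all genes. Of 7 tested subunits of the cytosolic chaperonin CCT, the double ring that folds actin and tubulin, 6 were higher in SNpc and 0 in VTA (median log2 fold change 0.45, range 0.32 to 0.55). For all 6 called subunits the lowest SNpc library was above the highest VTA library. Cct8 (Entrez 12469, chromosome 16, 87483325 to 87495869) was 158, 149.9, 148, 141 and 144 CPM in the SNpc libraries, against 102, 97.9, 95.2, 112 and 100.4 CPM in the VTA libraries, a log2 fold change of 0.55 ± 0.09 (SE; adjusted p = 0.000109 in edgeR). Cct7 was 135, 130.2, 132, 114 and 118 CPM in the SNpc libraries, against 87.8, 95.2, 92.3, 90.7 and 85.9 CPM in the VTA libraries, with a log2 fold change of 0.48 ± 0.09 (SE; adjusted p = 0.000475 in edgeR). Cct5, with the highest CPM of the subunits before any correction for length, was 188, 171, 179, 171 and 173 CPM in the SNpc libraries, against 112, 126, 151, 144 and 151 CPM in the VTA libraries, with a log2 fold change of 0.37 ± 0.10 (SE; adjusted p = 0.00669 in edgeR). The remaining called subunits were Cct4 (0.50), Cct2 (0.45) and Cct3 (0.42), while Cct6a had 0.32 and did not pass (edgeR adjusted p = 0.109). The first subunit is listed as Tcp1, outside the members, and had a log2 fold change of 0.29 (edgeR adjusted p = 0.0192). Once the length and GC trend was removed, Cct8, Cct7 and Cct4 were still called, at 0.29, 0.38 and 0.30, and Cct2, Cct3 and Cct5 were not, at 0.20, 0.21 and 0.14. With the length of the median transcript, Cct3 was called as well, and Tcp1 turned to -0.17. The call of Tcp1 also ended with the longest transcript's trend removed, with library totals as the scale and without SNpc library 1. Over all fits without a single library its log2 fold change ran over 0.26 to 0.33 with adjusted p from 0.0122 to 0.0509 (edgeR).

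Prefoldin, which delivers unfolded actin and tubulin to CCT, and other partners of the chaperonin gave 8 of 12 tested genes higher in SNpc and 0 in VTA (median log2 fold change 0.41). The shares over all genes were 17.8% and 20.4%. Pfdn2 (0.68), the phosducin-like Pdcl (0.79), the prefoldin subunit Pfdn6, listed as H2-Ke2 (0.67), and Vbp1 (0.52) had the smallest p. The median transcript length of the list was 1665 bases, and 2 were called once the length and GC trend was removed. Among the 8, Pfdn4 (0.47) then turned to -0.09, and Pfdn5 (0.39) to -0.01 with the median transcript, both named after their values were seen.

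The mitochondrial chaperonin pair Hspd1 and Hspe1, the barrel and its lid, share the promoter region shown above. Hspd1 (Entrez 15510, chromosome 1, 55077833 to 55088243) was 334, 301, 316, 286 and 314 CPM in the SNpc libraries, against 204, 256, 228, 248 and 225 CPM in the VTA libraries, without overlap and with a log2 fold change of 0.42 ± 0.09 (SE; adjusted p = 0.00117 in edgeR). Hspe1 (chromosome 1, 55088148 to 55091317) was 239, 223, 213, 223 and 169 CPM in the SNpc libraries, against 102, 111, 185, 175 and 188 CPM in the VTA libraries, with a log2 fold change of 0.49 ± 0.16 (SE; adjusted p = 0.0294 in edgeR). In Hspe1, VTA libraries 1 and 2 lay far below the other VTA libraries, and SNpc library 6 lay just below those others. Pseudogene copies hold 26.9% of the 100-base windows of Hspd1 and 20.4% of those of Hspe1. The call of Hspe1 ended with the length and GC trend removed (0.05) and with the glial covariate (0.47). It also ended when SNpc library 1, 2 or 3 or VTA library 1 or 2 was left out. Over all fits without a single library its log2 fold change ran over 0.37 to 0.57 with adjusted p from 0.0155 to 0.0716 (edgeR).

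The small heat shock proteins among the members, which are only those with Hspb symbols, stayed at or below 31.2 CPM in every library. Of 8 members 4 could be tested, and 3 were higher in SNpc and 0 in VTA, against 17.8% and 20.4% of all genes. Hspb6 (Hsp20) was 31.2, 28.9, 27.5, 25.6 and 28.7 CPM in the SNpc libraries, against 19.5, 16.7, 16.1, 18.1 and 18.8 CPM in the VTA libraries. The groups did not overlap, and the log2 fold change was 0.67 ± 0.13 (SE; adjusted p = 0.000671 in edgeR). Hspb8, which works with Bag3 in sending misfolded clients to autophagy, was 21.1, 16.2, 10.1, 9.83 and 9.22 CPM in the SNpc libraries, against 5.29, 5.82, 6.80, 12.2 and 6.78 CPM in the VTA libraries, with a log2 fold change of 0.85 ± 0.28 (SE; adjusted p = 0.024 in edgeR). Among VTA libraries, library 5 reached into the SNpc range. Bag3 itself, named after its values were seen, was lower in SNpc, at 3.47, 3.31, 3.58, 5.66 and 3.83 CPM in the SNpc libraries, against 17.0, 7.19, 5.92, 8.26 and 7.36 CPM in the VTA libraries, a log2 fold change of -1.20 ± 0.30 (SE; adjusted p = 0.00477 in edgeR). VTA library 1, with the highest endothelial sum, held its highest level, the part of which was not tested, and without single libraries its log2 fold change was -1.32 to -0.85 with adjusted p from 0.00363 to 0.0222 (edgeR). Hspb11, which despite its name is a subunit of the intraflagellar transport machinery, had a log2 fold change of 0.61 at 8.67 CPM in SNpc and 5.68 CPM in VTA. Hspb1 (Hsp25), the form most studied after injury, was at 1.77 CPM in SNpc and 1.13 CPM in VTA and did not pass (0.65, edgeR adjusted p = 0.366). A pseudogene holds 42.7% of the 100-base windows of Hspb1. With the length and GC trend removed, Hspb6 stood at 0.36 with the library scale kept, still called, and 0.35 with it refitted, not called, Hspb8 at 0.62, not called, and Hspb11 at -0.02, its direction turned. The calls of Hspb8 and Hspb11 also ended with the glial covariate (0.54 and 0.47). That of Hspb8 ended when SNpc library 1 or 2 or VTA library 1 or 2 was left out. Over all fits without a single library it ran over 0.62 to 1.11 with adjusted p from 0.00543 to 0.0949 (edgeR). The call of Hspb11 ended without SNpc library 1, 2, 3 or 6 or VTA library 1, 2, 4 or 5, with library totals as the scale and with no filter on low counts. Over all fits without a single library Hspb11 ran over 0.50 to 0.73 with adjusted p from 0.027 to 0.105 (edgeR).

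J proteins made up 44 of the members, and 15 of 39 tested were higher in SNpc and 2 in VTA, against 17.8% and 20.4% of all genes. In the DNAJA family, the general partners of Hsp70 in the cytosol and mitochondria, 2 of 4 were higher in SNpc and 0 in VTA, against the same shares. Dnaja1 (Entrez 15502, chromosome 4, 40722468 to 40734965) was 580.1, 489, 471, 455 and 540.1 CPM in the SNpc libraries, against 377, 349, 358, 365 and 296 CPM in the VTA libraries. All SNpc libraries lay above all VTA libraries, the mean being 507 ± 51.9 CPM in SNpc and 349 ± 31.3 CPM in VTA (SD, n = 5 each), with a log2 fold change of 0.54 ± 0.09 (SE; adjusted p = 0.000266 in edgeR). Transcripts of other genes hold 14.8% of the 100-base windows of Dnaja1, and 10.8% of its exonic bases overlap other genes. Dnaja2 was 174, 148, 149.6, 157 and 195 CPM in the SNpc libraries, against 120.0, 126, 137, 131 and 117 CPM in the VTA libraries, also without overlap, with a log2 fold change of 0.39 ± 0.10 (SE; adjusted p = 0.00508 in edgeR) whose call ended when the length and GC trend of the longest transcript was removed (0.21). The mitochondrial Dnaja3 (0.18) and Dnaja4 (-0.05) did not pass. Exons of Wdr61 on the opposite strand cover 44.1% of the exonic bases of Dnaja4.

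In the DNAJB family, 4 of 11 tested members were higher in SNpc and 0 in VTA, against 17.8% and 20.4% of all genes. With the glial covariate these counts were 1 (Dnajb14) and 0, against 11.8% and 15.7%. Dnajb6, which suppresses the aggregation of polyglutamine proteins, was 228, 204, 174, 156 and 183 CPM in the SNpc libraries, against 124, 115, 157, 158 and 141 CPM in the VTA libraries, a log2 fold change of 0.44 ± 0.12 (SE; adjusted p = 0.00694 in edgeR), with overlap. Pseudogene transcripts hold 31.0% of its 100-base windows. Dnajb2, a J protein enriched in neurons that passes ubiquitinated clients to the proteasome, was 49.9, 61.7, 53.4, 51.4 and 53.0 CPM in the SNpc libraries, against 32.9, 37.8, 43.2, 44.4 and 43.6 CPM in the VTA libraries, without overlap and with a log2 fold change of 0.42 ± 0.12 (SE; adjusted p = 0.01 in edgeR). Dnajb4 (0.32, 102 CPM in SNpc and 81.8 CPM in VTA) and Dnajb9 (0.70, 42.7 CPM in SNpc and 26.2 CPM in VTA), a partner of Hspa5 in the endoplasmic reticulum, were also higher in SNpc. None of the 4 was called with the glial covariate, where the log2 fold change was 0.37 for Dnajb2, 0.25 for Dnajb4, 0.29 for Dnajb6 and 0.35 for Dnajb9. The length and GC trend of the longest transcript ended the calls of Dnajb4 (0.10) and Dnajb9 (0.46), and that of the median transcript all 4 (0.26, 0.19, 0.18 and 0.56 in the same order). Besides that, Dnajb9 was not called when SNpc library 1 or 6 or VTA library 1, 2, 5 or 6 was left out. Over all fits without a single library its log2 fold change ran over 0.47 to 0.89 with adjusted p from 0.00373 to 0.0792 (edgeR).

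Dnajb1, the cytosolic partner of Hsp70 whose gene is a classical target of heat shock factor, was 73.6, 71.6, 78.2, 79.4 and 66.8 CPM in the SNpc libraries, against 53.3, 49.8, 76.0, 84.3 and 67.5 CPM in the VTA libraries. The groups overlapped and it did not pass, at a log2 fold change of 0.16 ± 0.14 (SE; adjusted p = 0.38 in edgeR). The endoplasmic reticulum proteins Dnajb11 (0.28), Dnajb12 (0.35) and Dnajb14 (0.43) did not pass either, but Dnajb14 lay near the threshold (edgeR adjusted p = 0.0509) and was called higher in SNpc with the length and GC trend removed (0.84) and with the glial covariate (0.54). Dnajb11 and Dnajb12 were called higher in SNpc without SNpc library 4 (0.38 and 0.49). Dnajb5 had the lowest log2 fold change of the family (-0.40, edgeR adjusted p = 0.086) and was called higher in VTA without VTA library 6 (-0.49). Dnajb3 (1.39 CPM in SNpc and 1.13 CPM in VTA) and Dnajb13 (0.166 CPM in SNpc and 0.106 CPM in VTA), known from the testis, were near 0 and did not pass (0.30 and 0.63).

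The DNAJC family, whose members have specialised roles, had calls in both directions: 9 of 24 tested were higher in SNpc and 2 in VTA, against 17.8% and 20.4% of all genes. Dnajc5, the cysteine string protein of synaptic vesicles that keeps the release machinery folded (Entrez 13002, chromosome 2, 181518858 to 181552886), was 484, 452, 439, 459.8 and 442 CPM in the SNpc libraries, against 310.3, 278, 335, 336 and 356 CPM in the VTA libraries. The groups were well apart, with means of 455 ± 17.8 CPM in SNpc and 323 ± 30.2 CPM in VTA (SD, n = 5 each) and a log2 fold change of 0.49 ± 0.08 (SE; adjusted p = 0.000238 in edgeR). Its longest transcript is 6578 bases, and with the length and GC trend removed its log2 fold change was 0.86. Dnajc8, which is tied to the spliceosome (0.64), Dnajc15 of the inner mitochondrial membrane (0.57), Dnajc7, a cochaperone of both Hsp70 and Hsp90 (0.45), Dnajc2 of the ribosome (0.40), the disulfide reductase Dnajc10 (0.36), the Rab-like Dnajc27 (0.30) and the mitochondrial Dnajc30 (0.29) were also higher in SNpc. Exons of Dnajc7 overlap Cnp, an oligodendrocyte gene on the opposite strand, over part of the 9.07% of its exonic bases shared with other genes. Cnp itself had 88.0 CPM in SNpc and 109 CPM in VTA and did not pass.

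Dnajc12, a cochaperone of the aromatic amino acid hydroxylases, tyrosine hydroxylase among them, was 88.4, 61.8, 73.4, 64.2 and 70.8 CPM in the SNpc libraries, against 62.4, 39.2, 50.03, 58.0 and 58.7 CPM in the VTA libraries. SNpc was higher, with overlap, at a log2 fold change of 0.42 ± 0.14 (SE; adjusted p = 0.0222 in edgeR). That call ended without SNpc library 1 or VTA library 2, with the glial covariate (0.35) and with the length and GC trend of the longest transcript removed (0.28). Over all fits without a single library the log2 fold change of Dnajc12 ran over 0.32 to 0.52 with adjusted p from 0.0086 to 0.0738 (edgeR). The call of Dnajc30, whose exons overlap Bud23 over 26.2% of their length, ended when SNpc library 3 or VTA library 1, 2 or 6 was left out. Over all fits without a single library its log2 fold change ran over 0.25 to 0.35 with adjusted p from 0.0179 to 0.0882 (edgeR). Its call also ended with library totals as the scale and with the length and GC trend removed (0.05). It ended as well with the glial covariate, where its log2 fold change was 0.30 against 0.29 without it. Dnajc2 was not called with the trend removed (0.18) or with the glial covariate (0.28). That of Dnajc8 ended with the trend removed and the library scale refitted (0.25).

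The clearest exception among all members was Dnajc1, a J protein of the endoplasmic reticulum membrane that sits at the ribosome exit (Entrez 13418, chromosome 2, 18205634 to 18394099). It was 27.0, 24.6, 42.2, 34.0 and 28.4 CPM in SNpc libraries 1, 2, 3, 4 and 6, against 96.5, 113, 87.9, 101 and 96.6 CPM in VTA libraries 1, 2, 4, 5 and 6. Every VTA library lay above every SNpc library by a wide margin, and the means were 31.2 ± 7.03 CPM in SNpc and 98.9 ± 9.17 CPM in VTA (SD, n = 5 each). The difference of -1.66 ± 0.14 (SE; adjusted p = 3.27e-07 in edgeR) on the log2 scale was the largest in size of all members tested, and it stayed called at -1.38 with the length and GC trend removed and at -1.61 with the glial covariate. Exons of Mllt10 on the opposite strand cover 6.43% of its exonic bases. Dnajc13, the endosomal J protein RME-8, in which variants have been reported in familial Parkinson disease, a link that is debated (chromosome 9, 104151597 to 104263608), was 68.98, 61.4, 65.9, 60.9 and 87.7 CPM in the SNpc libraries, against 87.8, 107, 90.7, 102 and 120.3 CPM in the VTA libraries. SNpc library 6 lay just below VTA library 1, the lowest of its group, and the log2 fold change was -0.56 ± 0.12 (SE; adjusted p = 0.00174 in edgeR). Its transcript of 8012 bases lies in the longest of the 5 length bins described below, and with the length and GC trend removed the log2 fold change was -0.19 and no longer called, while it was -0.68 and called with the glial covariate.

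The other 13 tested DNAJC genes did not pass, with log2 fold changes from -0.16 (Dnajc17) to 0.41 (Dnajc4). They include Dnajc3, the inhibitor of the stress kinases PERK and PKR that works with Hspa5 (-0.01, 31.6 CPM in SNpc and 31.8 CPM in VTA), Dnajc14, described as an aid to the surface delivery of dopamine receptors (-0.08), and Dnajc11, Dnajc9, Dnajc19, Dnajc28, Dnajc16, Dnajc24 and Dnajc25. Dnajc18 (0.23) was called higher in SNpc with the length and GC trend removed (0.45), and Dnajc21 (0.24), which serves in ribosome biogenesis, with the glial covariate (0.40). With the trend of the median transcript removed, Dnajc11 was called higher in SNpc (0.40) and Dnajc19, of the mitochondrial import motor, higher in VTA (-0.31). Among J proteins under other names, Sec63 of the translocation pore was higher in VTA (-0.32) and auxilin-related Gak had 0.01 and did not pass. The call of Sec63 ended with the length and GC trend removed and when SNpc library 1, 2, 4 or 6 or VTA library 2, 4 or 6 was left out. Over all fits without a single library its log2 fold change ran over -0.38 to -0.21 with adjusted p from 0.0191 to 0.164 (edgeR).

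Grouped by compartment rather than family, the members of the endoplasmic reticulum gave 2 of 14 higher in SNpc and 1 in VTA (median log2 fold change 0.14). Neither count was above the shares of all genes, 17.8% and 20.4%. The calls were Dnajb9 and Dnajc10 in SNpc and Dnajc1 in VTA, and the main lumenal chaperones Hspa5 and Hsp90b1 were not among them. The mitochondrial members gave 5 of 10 higher in SNpc and 0 in VTA (median log2 fold change 0.32), namely Hspa9, Hspd1, Hspe1, Dnajc15 and Dnajc30. A list of the inducible heat shock response, with 13 members and other genes, gave 8 of 16 higher in SNpc and 1 in VTA (median log2 fold change 0.43). The 8 higher in SNpc were Hspa8, Hsp90aa1, Dnaja1, Hspd1, Hspe1, Hspb8, Hspa4l and Chordc1 (0.67), and the 1 higher in VTA was Bag3. Its other 7 genes did not pass, Hspa1a, Hspa1b, Hspb1 and Dnajb1 among them. With the glial covariate, 2 endoplasmic reticulum members, 2 mitochondrial members and 5 inducible-list genes were higher in SNpc, against 11.8% of all genes. In the same order, 3, 3 and 7 were with the length and GC trend removed and the scale kept, against 14.6%. Higher in VTA were 1, 0 and 0 in the first of these fits and 1, 0 and 2 in the second, against 15.7% and 16.2%. Whether the compartments differ from each other was not tested.

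Transcript length moved with the region across all genes, and the members were read against it. Spearman's rho between length and log2 fold change was -0.38 across the tested genes with a length, which are not independent replicates, and the slope of log2 CPM on length was -0.186 to -0.0406 per doubling in the SNpc libraries, against 0.0701 to 0.236 in the VTA libraries. With all tested genes split into 5 equal bins of length, the median log2 fold change fell from 0.34 in the shortest bin through 0.15, -0.04 and -0.16 to -0.48 in the longest. The medians of the members in those bins were 0.36, 0.42, 0.30, 0.16 and 0.25, over 12, 22, 17, 9 and 9 members. In the shortest bin, members and other genes thus stood close together, and in the longest they were furthest apart. Of the 9 members in the longest bin, 4 (Dnaja1, Dnajc5, Dnajc15 and Hspa4l) were higher in SNpc, against 7.30% of all genes in it, and 2 (Dnajc1 and Dnajc13) were higher in VTA, against 48.4%. The median transcript of Dnaja1 has 3376 bases, that of Dnajc5 3664, that of Dnajc15 6193 and that of Hspa4l 2744, and which transcript was expressed was not tested. With the trend of length and GC content removed in each library, 24 members were higher in SNpc and 3 in VTA when the library scale was kept, and 22 and 3 with it refitted, against 14.6% and 16.2% of all genes in the first of these fits. In either direction these fits called 30.9% and 31.2% of all genes. With the median transcript 25 members were higher in SNpc and 3 in VTA, and 32% of all genes passed in either direction. With the longest transcript and the scale kept, 22 of the 36 calls stayed and 5 were added, Dnajb14, Dnajc18, Hspa12a and Hsph1 higher in SNpc and Hspa1l (-0.80) higher in VTA. Over the members tested the median was then 0.22 with the scale kept and 0.21 with it refitted.

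**Figure D3:**
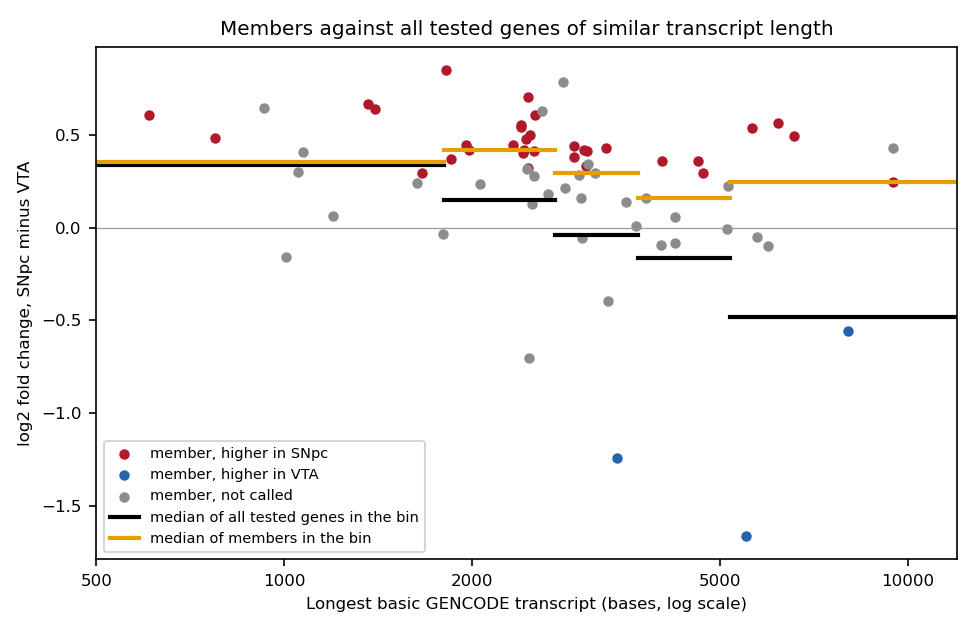
Log2 fold change (SNpc minus VTA) of the members tested against the length of their longest basic transcript (bases, log scale), coloured by call. Black and orange lines give the medians of all tested genes and of the members in 5 equal bins of length, and they part with length, from 0.36 for members and 0.34 for all genes in the shortest bin to 0.25 and -0.48 in the longest.

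Of the 36 members called, 12 were called in the same direction under every other normalization, filter, covariate and left-out library tried. How many of all genes called kept their call in this way was not counted, so the 12 cannot be set against a background. These were Hspa8, Hsp90ab1, Hsp90aa1, Hspd1, Cct8, Cct7, Cct4, Dnaja1, Dnajc5, Dnajc7 and Dnajc15, higher in SNpc, and Dnajc1, higher in VTA. They hold the most abundant cytosolic Hsp70 and Hsp90 genes, the barrel of the mitochondrial chaperonin and the J protein of synaptic vesicles. Against a minimum change of 1.2-fold, 13 members higher in SNpc and 3 higher in VTA passed the test. The count of all genes higher in SNpc also fell in that fit and is given with the processing results below.

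**Figure D4:**
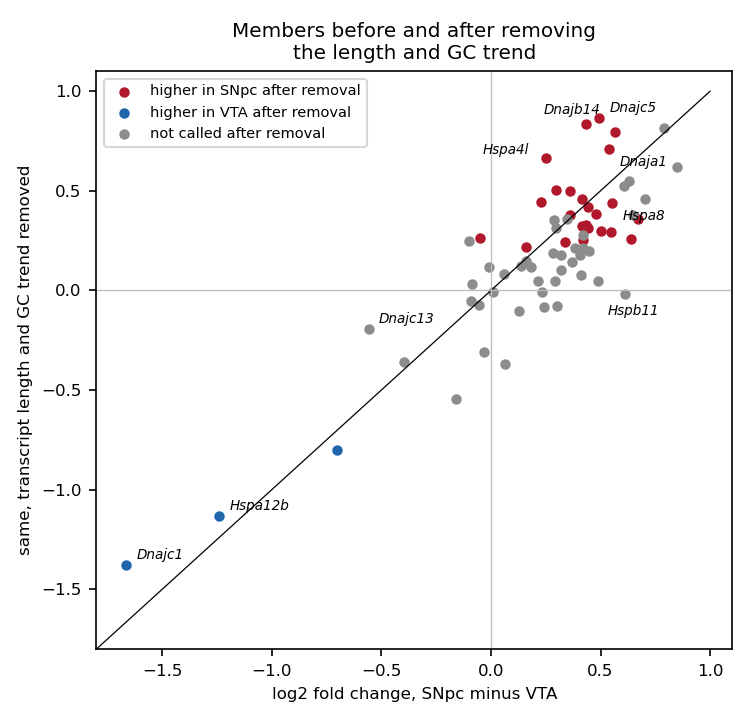
Log2 fold change of each member tested before (horizontal axis) and after (vertical axis) the trend with transcript length and GC content was removed, with the line of equality, coloured by the call after removal. The trend is that of the longest transcript. Dnajc5 and Hspa4l, whose longest transcripts are long, lie above the line (0.86 and 0.66 after removal). With the trend of the median transcript, not plotted, they were at 0.68 and 0.18. Hspb11, with a short transcript, falls to -0.02, Dnajc13 moves to -0.19, and Dnajc1 stays at -1.38.

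Within SNpc the members did not spread evenly over the libraries. Library 1 held the highest value of the region for 28 of 69 members, 40.6% of them, against 19.0% of all genes tested. In VTA the corresponding shares ran from 17.4% to 23.2%, and no library stood out. SNpc library 1 also held the highest dopaminergic marker sum, 18965 CPM against 12984 to 17044 in the other SNpc libraries, and the part of this in its chaperone levels was not tested. Without that library 27 members were higher in SNpc, and without SNpc library 4, which has the highest oligodendrocyte sum, 37 were. The count of all genes higher in SNpc also varied between fits without single libraries, as given below. Whether the members changed more than all genes did was not tested.

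The 11 members that could not be tested were at or near 0 in both regions. Dnajb7, Dnajb8 and Dnajc5g had no count in any library. Dnajc22, Dnajc5b, Cct6b, Cct8l1, Hspb2, Hspb3, Hspb7 and Hspb9 had counts but stayed at or below 1.94 CPM in every library.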

How the data were processed

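The authors deposited 1 table of read counts per gene, whole numbers without normalization, named by Entrez identifier and symbol, with 12 columns that all matched a sample. Reads were aligned with TopHat2 2.0.8 to mm10, per the submitters' processing notes. Per the labels' protocols, cDNA was amplified with the NuGEN Ovation V2 kit, which does not mark strand, before fragmentation, and read from 1 end. Sources used here name no counting program, annotation or strand setting, so overlapping genes and copies may share counts.

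The whole table was fitted in edgeR 4.0.16 under R 4.3.3 (filterByExpr, TMM, robust quasi-likelihood F test, SNpc minus VTA, no covariate). CPM values are TMM-scaled, given ± SD. Log2 CPM for covariates and trends used a prior count of 2. The fit was checked on simulated counts. Alternatives were DESeq2 1.42.0, library totals, other filters, the 12 columns, left-out libraries, the replicate number as a block, a minimum change of 1.2-fold, removal of each library's trend of log2 CPM on transcript length and GC (splines with 5 degrees of freedom) and the mean of 30 glial markers as a covariate. The use of the median transcript was added after the data were seen. Lengths are of the longest basic GENCODE M21 transcript, found for all 80 members and 20946 genes, and coordinates are RefSeq's on GRCm38.p6 (mm10). Depth, with total counts of at least 62356964 per library, left a median standard error of 0.19 for a log2 fold change.

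The members and lists were chosen with earlier results of these data known. Every member is named or counted. CPM per library are given for the 2 members with the lowest p-values and the most abundant one in each family, and of other lists the 4 genes with the smallest p are named. Values per library of Dnajc12, Dnajc13, Dnajb1, Hspa5, Hspa12b, Hsf1 and Bag3 were chosen after the values were seen. 1 result is not reported here.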

Additional observations from a re-analysis of the deposited data

Results flagged for a closer look

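In 10 of 138 groups of 5 libraries (each member tested, in each region), 1 library stood apart from the others by Dixon's criterion, and chance alone gives about 1 in 20. Dnajb9 was highest in VTA library 4, at 38.5 CPM, with the other VTA libraries at 21.0 to 24.4 CPM. Dnajb5 was lowest in SNpc library 1, at 16.1 CPM, with the other SNpc libraries at 26.6 to 29.9 CPM. Dnajc27 was lowest in SNpc library 6, at 155 CPM, with the other SNpc libraries at 178 to 187 CPM. Dnajc28 was highest in VTA library 4, at 14.5 CPM, with the other VTA libraries at 9.67 to 10.96 CPM. Dnajc17 was highest in SNpc library 3, at 9.30 CPM, with the other SNpc libraries at 3.47 to 4.17 CPM. Dnajc24 was highest in VTA library 2, at 14.0 CPM, with the other VTA libraries at 10.5 to 11.4 CPM. Dnajc25 was highest in VTA library 6, at 3.48 CPM, with the other VTA libraries at 1.25 to 1.84 CPM. Hspa4l was highest in SNpc library 6, at 244 CPM, with the other SNpc libraries at 199.6 to 210.4 CPM. Cct4 was highest in SNpc library 1, at 119 CPM, with the other SNpc libraries at 95.0 to 100.2 CPM. Hspb8 was highest in VTA library 5, at 12.2 CPM, with the other VTA libraries at 5.29 to 6.80 CPM. These values lay in 7 different libraries, 2 in VTA library 4, 2 in SNpc library 1 and 2 in SNpc library 6.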

How the results depend on the processing

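The count of members higher in SNpc, 33, was 21 with glial markers as a covariate and 13 against a minimum change of 1.2-fold, and 26 to 37 without single libraries. Those higher in VTA numbered 3 to 4 without single libraries, and CCT subunits higher in SNpc 6 each time. Of the 6 CCT calls, 3 remained with the length and GC trend removed, with the scale kept and refitted alike. The 2793 genes higher in SNpc became 1852 with the glial covariate and 1413 against the minimum change, and ran from 2284 to 3317 without single libraries (2790 to 3193 genes higher in VTA). The causes were not tested. The replicate numbers gave no sign of pairing among the libraries kept: correlations of same-numbered deviations were 0.032, -0.072, -0.015 and 0.044. SNpc library 3 and VTA library 5 had no partner of the same number. Which number stood for a pair of identical columns was a choice. With the number as a block, 21 members and 1814 genes were higher in SNpc. In that fit the libraries without a partner added nothing to the comparison of regions, so these counts rest on fewer libraries. All 36 calls kept their direction and threshold with DESeq2, and 22 did with the length and GC trend removed. The sign of these log2 fold changes, of which those of Hspb11, Tsc1 and Tcp1 were called before (Pfdn4 and Pfdn5 are given with the prefoldins), turned (or reached 0) with the length and GC trend removed and the scale kept, Dnajb3 (-0.08), Dnajc21 (-0.01), Dnajc9 (-0.08), Dnajc19 (-0.10), Dnajc14 (0.03), Dnajc16 (0.25), Dnajc24 (-0.37), Dnajc3 (0.12), Hspa12a (0.26), Hspa5 (-0.01), Hspb11 (-0.02) and Tsc1 (0.03); with that trend removed and the scale refitted, Dnajb3 (-0.08), Dnajc21 (-0.01), Dnajc9 (-0.09), Dnajc19 (-0.11), Dnajc14 (0.02), Dnajc16 (0.24), Dnajc24 (-0.38), Dnajc3 (0.11), Hspa12a (0.25), Hspa5 (-0.01), Hspb11 (-0.03) and Tsc1 (0.03); with the trend of the median transcript removed, Dnajc19 (-0.31), Dnajc14 (0.13), Dnajc16 (0.30), Dnajc24 (-0.23), Dnajc3 (0.20), Hspa13 (-0.04), Hspa5 (-0.02), Tsc1 (0.08) and Tcp1 (-0.17). It likewise turned with the glial covariate, Dnajc28 (-0.07), Dnajc25 (0.06), Dnajc3 (0.16), Hspa12a (0.00), Hspa13 (-0.04), Hspa5 (-0.28) and Gak (0.00); with the replicate number as a block, Dnajc14 (0.03), Dnajc24 (-0.08), Dnajc3 (0.06) and Hsf1 (0.14); with all 12 columns, Dnajc25 (0.06), Dnajc3 (0.13) and Hspa5 (-0.06); with DESeq2, Dnajc3 (0.02); without a filter, Dnajc3 (0.00); with library totals, Hspa5 (-0.05) and Gak (-0.04); with the CPM filter, Hspa5 (-0.01) and Gak (0.00). Without single libraries the sign varied for Dnaja4 (-0.13 to 0.07), Dnajc16 (-0.22 to 0.05), Dnajc24 (-0.02 to 0.20), Dnajc25 (-0.30 to 0.27), Dnajc3 (-0.14 to 0.08), Hspa12a (-0.09 to 0.01), Hspa13 (-0.03 to 0.18), Hspa14 (-0.11 to 0.08), Hspa5 (-0.12 to 0.17), Gak (-0.02 to 0.08) and Hsf1 (-0.20 to 0.08), none of them called.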

Other observations

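Of 9 heat shock factors and their regulators, 2 were higher in SNpc and 0 in VTA, against 17.8% and 20.4% of all genes tested. Hsf1, the main activator of the heat shock genes, was 35.5, 42.2, 28.6, 42.2 and 60.6 CPM in the SNpc libraries, against 43.5, 47.6, 39.5, 51.5 and 31.5 CPM in the VTA libraries, with a log2 fold change of -0.03 ± 0.18 (SE; adjusted p = 0.913 in edgeR) that did not pass. Hsbp1, a small protein that binds its trimer (0.52), and the second factor Hsf2 (0.42) were the calls higher in SNpc, and neither was called with the length and GC trend removed (0.12 and 0.20). Hsbp1l1 (0.62) and Hsf3 (-1.66, 0.186 CPM in SNpc and 0.591 CPM in VTA) did not pass.

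Of 16 other mitochondrial chaperones and proteases, 6 were higher in SNpc and 0 in VTA (median log2 fold change 0.28). The shares over all genes were 17.8% and 20.4%. Trap1, the Hsp90 of mitochondria, was 42.2 ± 4.796 CPM in SNpc and 29.4 ± 2.55 CPM in VTA (SD, n = 5 each), a log2 fold change of 0.52 ± 0.12 (SE; adjusted p = 0.00295 in edgeR). The protease Clpp (0.50), Hscb, the J protein of iron-sulfur cluster assembly (0.64), and Pam16 of the import motor (0.62) were higher as well. With the length and GC trend removed 2 of the list were called, Trap1 among them, and Clpp, Hscb and Pam16 were not.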
